A study of Mus musculus with 7 samples.

Results

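The keratin genes Krt7, Krt8, Krt18, Krt19, Krt20, Krt23, Krt5, Krt14 and Krt15 were followed through the development of the mouse colon. They were chosen by name, 6 as keratins of simple epithelium and 3 as keratins of the basal layer of squamous epithelium. Earlier results of these data were known when they and the gene lists below were chosen. Counts over these sets therefore describe them and are no independent test. All 9 were measured, among 18194 genes, by 13 of the 34958 probe sets that name a single gene. Colon came from inbred C57BL/6 mice with no treatment or mutation named, as adult colon at 8 weeks after birth and as embryonic colon on each day between E13.5 and E18.5. Each of the 7 stages had 1 Affymetrix array, and the labels do not say whether a sample pooled several animals. Levels are log2 intensities, so a difference of 1 is a doubling, and a gene with several probe sets is given by their median.

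Keratins are the intermediate filament proteins of epithelial cells, and a filament is built from pairs of a type I and a type II keratin. In the single-layered epithelium that lines the intestine, the type II keratin Krt8 pairs with the type I keratins Krt18, Krt19 and Krt20, and Krt20 is known from the differentiated cells that have left the crypt base. Krt7 is a type II keratin of ducts and glands, and Krt23 is a type I keratin whose role is less settled. Krt5 (type II) and Krt14 (type I) form the filaments of basal cells in stratified epithelia such as epidermis, where Krt15 (type I) is also found.

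In the RefSeq annotation of mouse (GRCm38.p6), Krt7, Krt8, Krt18 and Krt5 lie on chromosome 15 and Krt20, Krt23, Krt15, Krt19 and Krt14 on chromosome 11. Krt8 and Krt18 are direct neighbours, as are Krt20 and Krt23, and Krt15 and Krt19. The 120 bases before the annotated start are shown for the 6 keratins whose RefSeq table entry begins at the gene's own start, because they let the genes that moved together be set beside those that did not. Each is written 5′ to 3′ on the gene's strand, and capitals mark ATAAA, the core of a TATA-type element.
Krt8 (chr15:102004343-102004462, minus strand): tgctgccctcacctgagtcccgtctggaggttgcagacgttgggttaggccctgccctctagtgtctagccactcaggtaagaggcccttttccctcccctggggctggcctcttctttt
Krt7 (chr15:101412283-101412402, plus strand): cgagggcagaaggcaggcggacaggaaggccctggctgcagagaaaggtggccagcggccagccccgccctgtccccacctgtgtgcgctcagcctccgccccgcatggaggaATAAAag
Krt18 (chr15:102028096-102028215, plus strand): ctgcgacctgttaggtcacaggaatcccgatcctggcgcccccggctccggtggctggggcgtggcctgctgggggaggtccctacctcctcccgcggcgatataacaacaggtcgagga
Krt20 (chr11:99438154-99438273, minus strand): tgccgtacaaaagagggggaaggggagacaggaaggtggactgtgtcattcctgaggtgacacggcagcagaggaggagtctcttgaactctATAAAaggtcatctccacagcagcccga
Krt23 (chr11:99493121-99493240, minus strand): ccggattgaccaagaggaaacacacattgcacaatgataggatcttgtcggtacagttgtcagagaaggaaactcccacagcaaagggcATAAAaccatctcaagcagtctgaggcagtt
Krt5 (chr15:101712906-101713025, minus strand): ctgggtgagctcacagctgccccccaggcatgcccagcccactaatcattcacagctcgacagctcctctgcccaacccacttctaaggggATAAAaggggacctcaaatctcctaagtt
ATAAA was searched as these letters on both strands. On the gene's own strand it began 28 bases before the start in Krt20, 31 in Krt23 and 29 in Krt5, within the window of 35 to 21 bases that held it in 3.28% of 32851 mouse promoters of the table. In Krt7 it began 7 bases before the start. The printed stretches of Krt8 and Krt18 held none on that strand, where 12.6% of all promoters held it within their 120 bases before the start. In Krt8 the letters began at base 1 after the annotated start. Thus these exact letters lay at a like distance in Krt20, which rose, Krt23, which did not pass the test, and Krt5, which stayed level. The neighbours Krt8 and Krt18, which both rose, did not have them there. All these distances count from the annotated start, and whether transcription begins there was not tested. Near the end of the printed Krt18 stretch stand the letters tataa, which the search for ATAAA does not count. Whether they work as a TATA-type element was not tested. Over 250 bases and both strands, the GC box letters GGGCGG were found in Krt7 alone among these 6 (32.7% of all promoters), and TGANTCA, the letters of an AP-1 type element, in none of them (6.75% of all promoters). These matches describe the sequence only, and binding was not measured.

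Of the 9 keratins, 5 rose over the embryonic days and 0 fell, where 9.12% of all genes rose and 10.4% fell (limma, slope per day over the 6 embryonic arrays, Benjamini-Hochberg adjusted over 18194 genes). The 5 were Krt8, Krt7, Krt18, Krt19 and Krt20, all keratins of simple epithelium. None of the 3 squamous keratins passed, and neither did Krt23. At an unadjusted p under 0.05 the counts were 6 and 0, the sixth being Krt23. In the adult only Krt20 was called above its level fitted at E18.5, and 0 keratins were called below it. Such a call needed a difference of at least 1 and an adjusted p under 0.05. Of all genes, 4.23% were called higher and 3.26% lower. At an unadjusted p under 0.05, whatever the size, 2 keratins (Krt20 and Krt23) were higher and 0 lower. Shares over all genes were not counted at an unadjusted p, here or below, so the shares given do not apply to such counts. No stage was repeated, so the error of every fit is the scatter of the embryonic arrays around a line (4 residual degrees of freedom per gene before limma shares the spread over genes), and the adult array was assumed to vary as they do. In whole tissue, fewer cells of a type and less RNA per cell cannot be told apart.

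**Figure D1:**
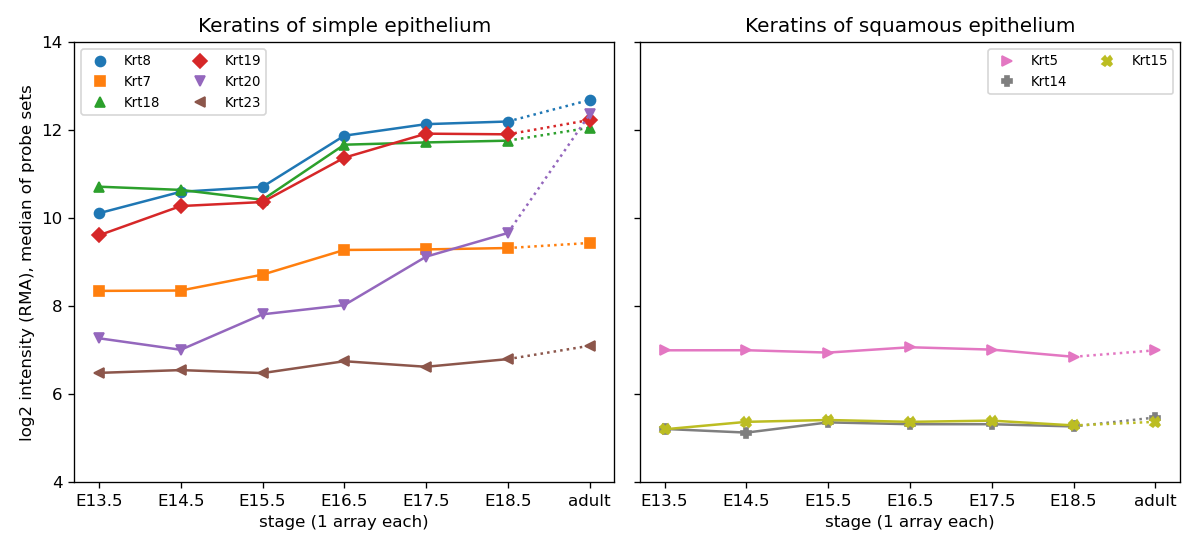
Log2 level (RMA, median of a gene's probe sets, vertical axis) of each keratin at the 7 stages (horizontal axis), with 1 point per array and dotted lines leading to the adult. Krt8, Krt18 and Krt19 step up between E15.5 and E16.5, Krt20 climbs late to 12.36 in the adult, and Krt5, Krt14 and Krt15 are level.

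Krt8, the main type II keratin of simple epithelium, stood at 10.11, 10.60, 10.72, 11.88, 12.14 and 12.20 on the 6 embryonic arrays in order of age, and at 12.69 in the adult. The 3 earlier embryonic arrays all lay below the 3 later ones. Its slope was 0.46 per day (SE 0.06, 95% interval 0.33 to 0.59, limma adjusted p = 0.0029), and its level at E18.5 was 4.25 times that at E13.5. The adult level was 0.26 above the fitted E18.5 level, with an interval of −0.42 to 0.93 and an adjusted p of 0.627. The 3 probe sets of Krt8 gave slopes of 0.50, 0.54 and 0.46 per day, and each passed the test over all single-gene probe sets. In that test 7 of the 13 keratin probe sets rose, where 7.24% of all did. These 7 include the 3 of Krt8, so they do not stand for 7 genes.

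Krt18, the type I partner of Krt8, read 10.72, 10.65 and 10.42 at E13.5, E14.5 and E15.5, and 11.67, 11.72 and 11.77 at E16.5, E17.5 and E18.5, with 12.06 in the adult. It was thus slightly lower at each of the first steps and nearly level after E16.5. A line described it less well than the other risers, with a slope of 0.28 per day (SE 0.07, limma adjusted p = 0.0397) and a residual SD of 0.39. The call held without the E15.5 array (adjusted p = 0.00992) and was lost without any one of the other embryonic arrays (adjusted p between 0.0619 and 0.142). Krt8 over Krt18 was 1.24 higher in the adult and 1.04 higher at E18.5 than at E13.5 on the log2 scale, so on these arrays Krt8 gained more than its partner.

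Krt19, a type I keratin of simple epithelium, rose with Krt8. Its embryonic levels, youngest array first, were 9.61, 10.28, 10.37, 11.38, 11.92 and 11.91, and the adult level was 12.24. The slope was 0.50 per day (SE 0.05, 95% interval 0.38 to 0.62, limma adjusted p = 0.00208), and the level at E18.5 was 4.91 times that at E13.5. The ratio of Krt19 to Krt8 stayed between 0.00 and 0.29 above its E13.5 value on the log2 scale at every later stage, and the adult added 0.08 to the fitted E18.5 level of Krt19 (interval −0.55 to 0.71, adjusted p = 0.898).

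Krt7, a type II keratin of glandular epithelium, had the smallest of the 5 rises. It measured 8.35, 8.36, 8.72, 9.28, 9.29 and 9.32 over the embryonic days and 9.44 in the adult. After E16.5 its neighbouring embryonic stages differed by at most 0.03. The slope was 0.24 per day (SE 0.04, limma adjusted p = 0.00742), which made the E18.5 level 1.97 times that at E13.5. Relative to Krt8 it was 1.49 lower in the adult and 1.11 lower at E18.5 than at E13.5, changes of −1.49 and −1.11 on the log2 scale.

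Krt20, the keratin of differentiated intestinal cells, followed another course. The embryonic arrays gave 7.27, 7.01, 7.82, 8.03, 9.13 and 9.67 in order of age, and the adult array gave 12.36. Its embryonic slope of 0.53 per day (SE 0.07, 95% interval 0.36 to 0.70, limma adjusted p = 0.00397) was followed by a further rise between E18.5 and 8 weeks of age, with no array in between. The adult level was 6.48 times the measured E18.5 level and 34.1 times the E13.5 level. Against the level fitted at E18.5 the adult was 2.89 higher (SE 0.36, 95% interval 2.03 to 3.74, limma adjusted p = 0.00235), the 92nd-ranked increase of 18194 genes. The adult RNA read as more shortened. For Gapdh, the 5′ control probe sets minus the 3′ ones gave −2.41 in the adult and −1.59 to −1.29 in the embryos, and for Actb −2.66 in the adult and −2.14 to −1.96 in the embryos. The part of RNA quality in the adult difference was not tested.

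Krt23 changed little. Its levels were 6.48, 6.55, 6.48, 6.75, 6.62 and 6.80 from E13.5 to E18.5 and 7.10 in the adult, the highest of the 7. Its slope of 0.06 per day (SE 0.02, limma adjusted p = 0.134) and its adult difference of 0.34 (SE 0.12, adjusted p = 0.101) did not pass. With the rank of the 7 stages in place of embryonic day it did pass, at 0.09 per stage (adjusted p = 0.0322).

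Krt5, the type II keratin of basal squamous cells, read 6.997, 6.999, 6.95, 7.07, 7.01 and 6.85 from E13.5 to E18.5 and 6.997 in the adult. Its partner Krt14 read 5.21, 5.13, 5.36, 5.32, 5.32 and 5.27, with 5.47 in the adult, and Krt15 read 5.20, 5.37, 5.41, 5.37, 5.40 and 5.29, with 5.37 in the adult. All 3 ranged over 0.34 or less across the 7 arrays, and none passed in either comparison. The 95% intervals of their slopes ran from −0.07 to 0.04 per day for Krt5, −0.03 to 0.08 for Krt14 and −0.04 to 0.07 for Krt15, so a slope as steep as that of Krt7 lay outside each of them. The 3 probe sets of Krt14 had slopes of 0.05, 0.08 and −0.01 per day and adult differences of 0.05, −0.44 and 0.26, and none passed. The files give no detection calls, so a level value does not tell a low message from probe background.

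**Figure D2:**
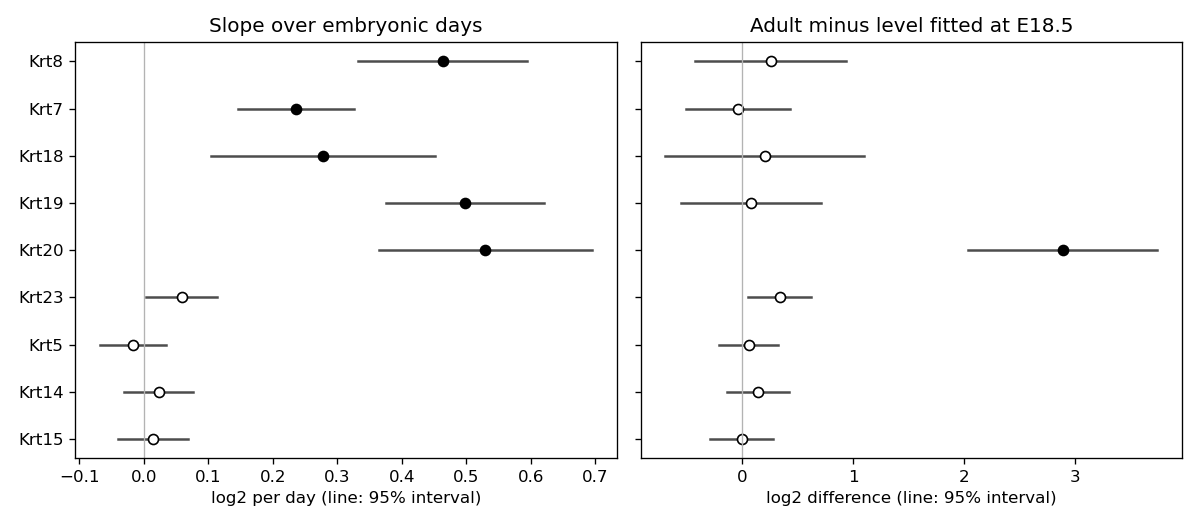
Slope per embryonic day (left, log2 per day) and adult minus the level fitted at E18.5 (right, log2) for each keratin, with lines for the 95% interval of the limma fit and filled points for calls. The left panel has 5 filled points, and on the right only Krt20, at 2.89, is filled.

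The rise was not even in time. Between E15.5 and E16.5, 3 of the 9 keratins went up by at least 1, Krt18 by 1.25, Krt8 by 1.16 and Krt19 by 1.01, where 1.01% of all genes did. Krt7 differed by 0.56 over the same step and Krt20 by only 0.21. That single step made up 55.7% of the whole E13.5 to E18.5 difference in Krt8, 57.6% in Krt7, 43.9% in Krt19 and 8.75% in Krt20, and in Krt18 it exceeded the whole. None of the 9 gained 1 or more at E14.5 over the day before, at E15.5 or at E18.5, steps at which 0.324%, 0.0934% and 0.368% of all genes did. For Krt20 the largest embryonic step was the next one, 1.10 between E16.5 and E17.5, when 0.649% of all genes went up by at least 1, and the adult stood 2.70 above E18.5, where 4.33% did. Each of these steps compares 1 array with 1 other and has no replicate check.

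**Figure D3:**
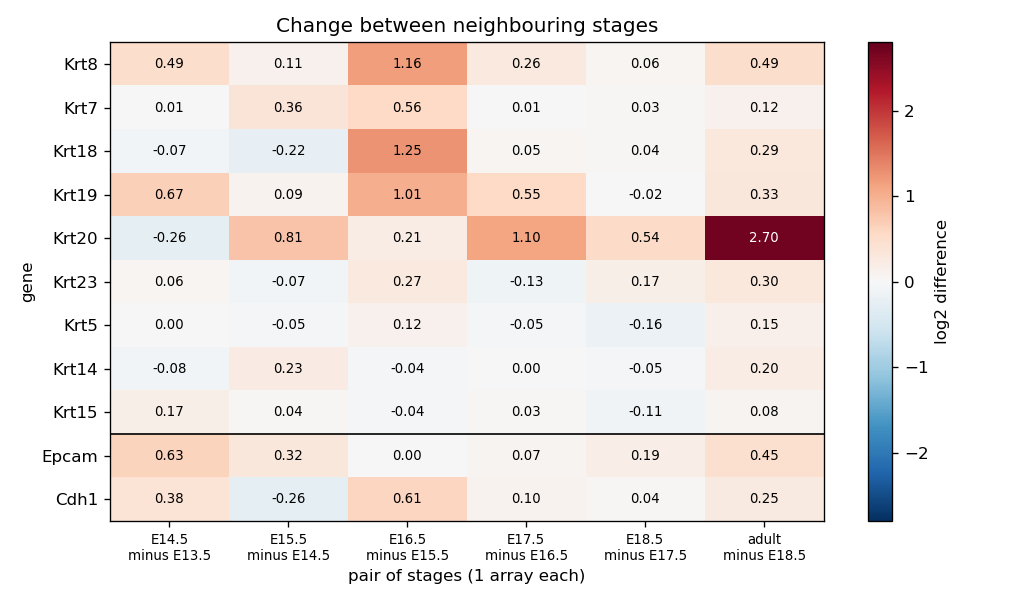
Log2 difference between neighbouring stages (columns, later minus earlier) for the 9 keratins and for Epcam and Cdh1 (rows), with colour and number giving the difference. Krt18, Krt8 and Krt19 stand at 1.25, 1.16 and 1.01 in the E16.5 column, and Krt20 at 2.70 in the adult column.

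A step between E15.5 and E16.5, added after the data had been seen, was fitted in place of the line. The mean of the 3 later embryonic arrays exceeded that of the 3 earlier ones by 1.13 for Krt18 (limma adjusted p = 0.0196), 1.60 for Krt8 (0.0225), 0.82 for Krt7 (0.0233) and 1.65 for Krt19 (0.024). So 4 of the 9 keratins passed, where 3.55% of all genes rose. The place of the step was taken from the jump of these same values, so the p-values and residuals describe that jump and are no independent evidence for it. For Krt18 the residual SD was 0.11 around the step and 0.39 around the line. For Krt19 it was 0.37 and 0.26, and for Krt20, whose step of 1.57 did not pass (adjusted p = 0.0747), 0.66 and 0.37. Across the 7 arrays the pairs among the 5 risers had Pearson correlations from 0.778 (Krt7 with Krt20) to 0.994 (Krt8 with Krt19), a description over 7 points that all share the course of development.

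Epithelial markers also rose, so the keratins were set against them. Epcam, an epithelial adhesion protein, read 8.64, 9.27, 9.58, 9.59, 9.66 and 9.85 over the embryonic days and 10.30 in the adult, and Cdh1, which encodes E-cadherin, read 10.69, 11.07, 10.82, 11.43, 11.53 and 11.57, with 11.82 in the adult. Between E15.5 and E16.5, Epcam differed by 0.00 and Cdh1 by 0.61. Relative to the mean of both, Krt20 had a slope of 0.34 per day, Krt19 of 0.30 and Krt8 of 0.27, and these 3 of the 9 keratins passed limma's moderated test, where 2.92% of all genes rose. That test gave every gene the same SE of 0.05 in place of its own scatter, so its p-values are too small for a gene with a wide scatter such as Krt20 and are not printed for these 3. With each gene's own scatter, an alternative added after the data had been seen, the SE was 0.12 for Krt20 (adjusted p = 0.0573), 0.05 for Krt19 (0.0141) and 0.06 for Krt8 (0.021). So 2 of the 9 passed and Krt20 did not, where 1.6% of all genes rose. Krt18, at 0.08 (limma adjusted p = 0.121), and Krt7, at 0.04 (adjusted p = 0.449), did not pass. With each gene's own scatter Krt18 had an SE of 0.10 and an adjusted p of 0.462. By the moderated test alone, Krt18 passed without the E13.5 array and with a step in place of the line. These 2 settings were not run with each gene's own scatter, so those passes share the fault of the moderated test. Krt23, Krt5, Krt14 and Krt15 fell relative to the 2 markers, as did 87.5% of all genes by the moderated test. They also fell with each gene's own scatter, as did 78% of all genes. Every ratio also holds the scatter of the same 2 markers.

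**Figure D4:**
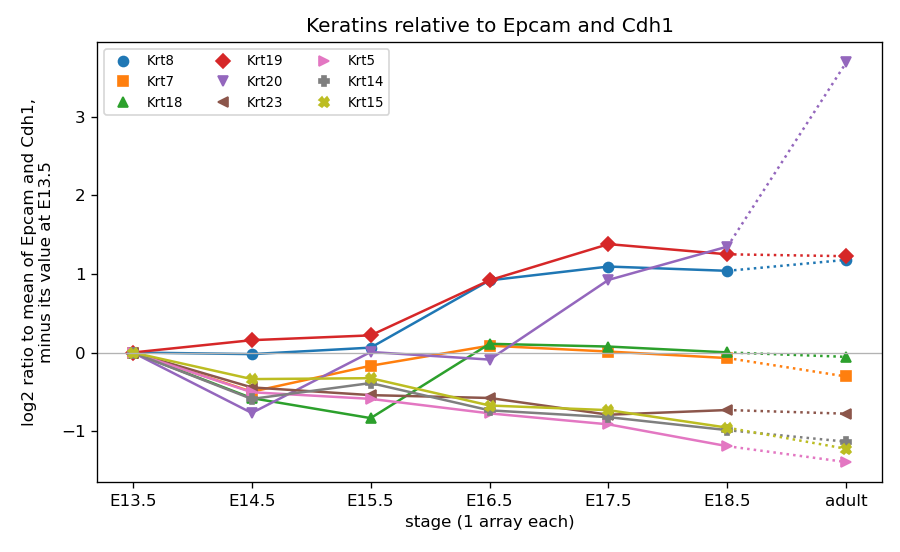
Log2 ratio of each keratin to the mean of Epcam and Cdh1, minus its value at E13.5 (vertical axis), at the 7 stages (1 array each). Krt8, Krt19 and Krt20 end above 0 and Krt18 ends near it. Krt7 lies near 0 at E18.5 and below it in the adult, and the other 4 drift further below.

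In the adult, Krt20 stood 2.62 above its fitted E18.5 ratio (95% interval 0.93 to 4.31 and adjusted p = 0.132 with its own scatter), while the other 8 keratins differed from theirs by between −0.30 (Krt7) and 0.07 (Krt23). The ratio of Krt20 to Krt8 was 2.52 higher in the adult and 0.31 higher at E18.5 than at E13.5. For this and the later lists, the shares over all genes were 9.12% that rose, 10.4% that fell, 4.23% higher and 3.26% lower in the adult. Among the 19 measured genes of a pan-epithelial list, 13 rose over the embryonic days, 0 fell and 3 were higher in the adult. Its steepest were Ehf, an epithelial transcription factor (0.50 per day), and the tight junction genes Cldn7 (0.33) and Cldn3 (0.32). The largest adult differences were in Spint1 (1.62) and St14 (1.58), which encode a membrane protease inhibitor and its protease. The median slope of the keratins was 0.24 per day, against 0.18 for this list and 0.00 for all genes. Their median adult difference was 0.15, against 0.60 for the list and 0.03 for all genes. These differences depend on the line. Against the measured E18.5 level the adult was 0.49 higher for Krt8, 0.12 for Krt7, 0.29 for Krt18 and 0.33 for Krt19. Their differences from the fitted level were 0.26, −0.04, 0.21 and 0.08. For Krt20 the measured difference of 2.70 was smaller than the fitted 2.89.

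Desmosomes and linker proteins anchor keratin filaments at the cell membrane. Of 21 measured genes of this kind, 11 rose over the embryonic days, 0 fell, 10 did not pass, and 5 were higher in the adult by at least 1, with a median slope of 0.12 and a median adult difference of 0.56. Perp, a desmosomal membrane protein, had a slope of 0.54 per day (limma adjusted p = 0.00386), Pkp2, a plakophilin, 0.43 (0.000802), and Eppk1, the keratin-binding epiplakin, 0.40 (0.00204). Pkp1, a plakophilin best known from stratified epithelium, was 4.17 higher in the adult than fitted at E18.5 (adjusted p = 1.47e-05), at 9.42 in the adult and 5.36 at E18.5. Itgb4, the hemidesmosome integrin that links keratin to the basement membrane, was 1.37 higher (adjusted p = 0.00466).

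The course of Krt20 was set beside genes of differentiated colonocytes. Of 16 such genes, 13 rose over the embryonic days and 0 fell, while 9 were higher and 2 lower in the adult. Lypd8, a secreted antibacterial protein, had a slope of 1.53 per day, Guca2a, which encodes guanylin, 1.21, and Fabp2, a fatty acid binding protein, 1.14. The carbonic anhydrases Car1 and Car4 were 6.66 and 6.44 higher in the adult, more than the 2.89 of Krt20. The brush border peptidases Anpep and Dpp4 were lower there, with differences of −2.15 and −1.05. With each gene centred on its mean over the arrays, the median of all 9 keratins was 0.47 in the adult and 0.36 at E18.5. That of the colonocyte list was 3.10 in the adult and 1.38 at E18.5. The median slope of the list was 0.58 per day and its median adult difference 2.02.

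**Figure D5:**
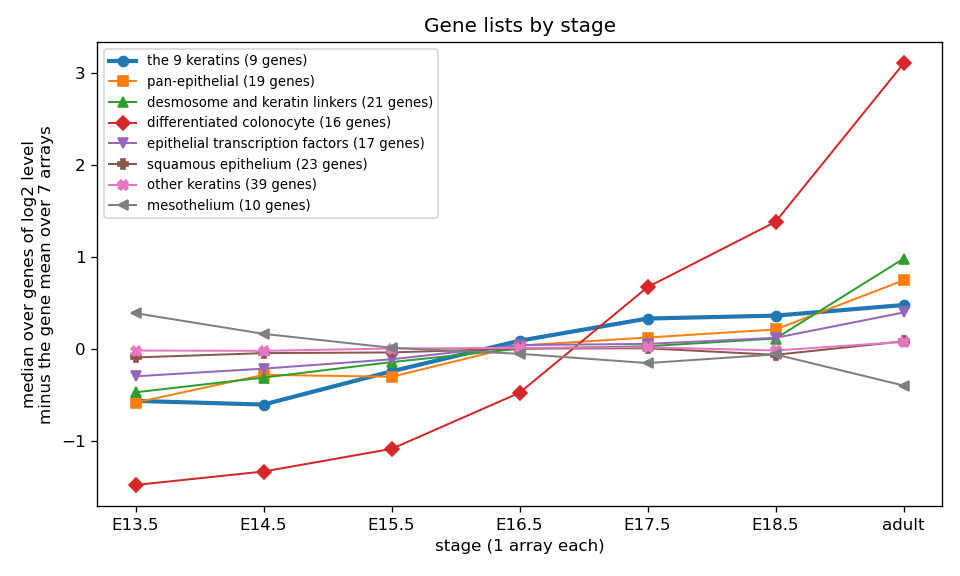
Median over the genes of each list of the log2 level minus the gene's mean over the 7 arrays (vertical axis), by stage (1 array each). The keratins stand at 0.47 in the adult and 0.36 at E18.5, the colonocyte list reaches 3.10 in the adult, and the other keratins stay near 0.

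Across the 7 arrays, 5 of the 9 keratins ranged over at least 1 on the log2 scale, as did 23.5% of all genes, but none of 39 other keratins measured. The mean level of the 39 was 5.45, against 8.43 for the 9 and a median of 6.13 for the means of all genes. The part of low level in this contrast was not tested. By limma 0 of these 39 rose or fell, and 0 differed in the adult by at least 1, although Krt12 (0.59, adjusted p = 0.0142) and Krt36 (0.34, adjusted p = 0.0382) were higher there by less. At an unadjusted p under 0.05 the fit had 2 that rose, 2 that fell, 3 higher in the adult and 0 lower. The widest was Krt80, over 0.81. Krt4 and Krt13, which mark the upper layers of moist squamous epithelium, had slopes of 0.01 each. A list of 23 measured squamous genes had a median slope of 0.02, with 3 that rose, 1 that fell and 4 higher in the adult. The shares over all genes were 9.12%, 10.4% and 4.23%. Pkp1 and Dsc3 stand in this list and in the desmosome list, so the calls of Pkp1 count in both. Trp63, the transcription factor that defines basal squamous cells, stayed between 5.18 and 5.43. Tgm3, an epidermal transglutaminase, had a slope of 0.68 per day (limma adjusted p = 0.0155), and Serpinb5, an epithelial serpin, was 3.38 higher in the adult (adjusted p = 2.26e-05). Bnc1, a basonuclin of basal keratinocytes that mesothelium also expresses, fell by 0.68 per day (adjusted p = 0.00569) and read 5.01 at E18.5, against 8.42 at E13.5. Thus in the adult Pkp1 and Serpinb5 were higher while Krt5, Krt14, Krt15 and Trp63 were level.

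Mesothelium, the lining of the outer gut surface, also contains simple keratins. Of 10 measured mesothelial genes, 4 fell over the embryonic days and 1 rose, where 10.4% of all genes fell and 9.12% rose. In the adult 0 differed by the rule of at least 1. Wt1, a transcription factor of mesothelium, fell by 0.42 per day (limma adjusted p = 0.00852) and stood at 9.22 on day E13.5, 7.13 on day E18.5 and 5.82 in the adult. Muc16, a membrane mucin, fell by 0.26 per day, and Upk1b, a uroplakin of mesothelium and urothelium, fell by 0.10. Msln, which encodes mesothelin, was the gene that rose, by 0.09 per day (adjusted p = 0.0445). What mesothelium contributed to the keratin levels was not tested. None of 3 uroplakin genes of urothelium passed, with a median slope of 0.02 (limma, 1 higher slope and 1 lower adult value at an unadjusted p under 0.05).

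Of 17 transcription factors of epithelium, 8 rose, 0 fell and 0 differed in the adult by at least 1 (limma, with 1 and 5 at an unadjusted p under 0.05, whatever the size). Below that size, Hnf4a, an intestinal nuclear receptor, was 0.69 higher in the adult (adjusted p = 0.00426) and Elf3, an epithelial factor, 0.59 higher (adjusted p = 0.0462). Klf4, a factor of differentiated epithelium, had a slope of 0.68 per day, and the intestinal factors Cdx1 and Hnf4g had slopes of 0.60 and 0.29. Of 16 other intermediate filament genes, 5 rose and 1 fell, where 9.12% and 10.4% of all genes did. In the adult 2 were higher and 2 lower, where 4.23% and 3.26% of all genes were. Vim, the mesenchymal vimentin, stayed between 11.80 and 12.17 over the 7 arrays. The lamin Lmna, the muscle filament Des and the neuronal filament Prph had slopes of 0.28, 0.21 and 0.18 per day. Synm, the muscle filament synemin, was 1.27 higher in the adult, and Lmnb1, a lamin, differed there by −1.43.

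Genes whose 7 values followed each keratin most closely were taken among 4273 genes that ranged over at least 1. For Krt8 these were Scin, an actin-severing protein (Pearson r = 0.999), Gmds, an enzyme of fucose synthesis (0.998), and Pglyrp1, a peptidoglycan recognition protein (0.995). Scin also led for Krt19 (0.996), followed by Oit1 and Lypd8 (0.995 each). For Krt7 the closest were Spink4 (0.995), Tff3, the trefoil factor of goblet cells (0.990), and Creb3l1 (0.985). For Krt18 they were Hip1r (0.989), Pdia5 (0.987) and Hspb6 (0.986), and for Krt20 Gm5485 (0.998), Nudt16 (0.997) and Oas1a (0.996). Krt23 was closest to Tspan33 (0.987), Me1 (0.985) and Rabgap1l (0.984). The level keratins gave highest values of 0.820 for Krt5, with Gm15050, 0.949 for Krt14, with Itgb2, and 0.962 for Krt15, with Sla. These correlations rest on 7 arrays that share the course of development, and the closest genes were picked from many.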

How the data were processed

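Colon RNA of 7 stages was hybridized to 1 array each. The authors deposited log2 intensities normalized by RMA, which corrects background, equalizes the arrays' distributions and summarizes probes, so a change common to most genes is hidden. Per the submitters' processing notes, R 2.9.2 and affy 1.22.1 were used. The medians of the 7 arrays lay between 5.81 and 5.86. Of 45101 probe sets, 932 that name several genes and 9211 that name none were left out, 18033 of 18195 gene identifiers matched the RefSeq table, and the median per gene was taken.

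limma 3.58.1 (R 4.3.3) fitted a slope over the 6 embryonic arrays and, in the same model (lmFit, eBayes), how far the adult lay from the E18.5 end of that line. Calls needed a Benjamini-Hochberg adjusted p under 0.05 and, for the adult, a difference of at least 1. On simulated arrays of 18194 genes the fit called 80% of 50 slopes of 0.2 and 96% of 50 slopes of 0.5, with 4 false calls. It called 94% of 50 adult differences of 1.5. The simulated scatter was independent between genes, and the courses were exact lines. Shifts shared by genes and stepwise courses were not simulated, so these shares do not cover them. Alternatives were the highest probe set, a filter on the dimmest 25% of genes, centring, trend and robust eBayes, the order of all 7 arrays, E17.5 and E18.5 as the adult's reference, the pan-epithelial median as the epithelial reference, leaving out each embryonic array, and, both added after the data had been seen, the step and each gene's own spread. Named genes were all 9 keratins, per list the 3 steepest and the 2 with the largest adult difference among those called, the 3 closest genes per keratin, Epcam, Cdh1, Gapdh and Actb. Krt4, Krt12, Krt13, Krt36, Krt80, Trp63, Vim, Anpep, Dpp4, Msln, Hnf4a and Elf3 were named after their values were seen. The keratins and lists were chosen with earlier results of these data known. Python 3.11.15, numpy 2.4.6, pandas 2.3.3 and matplotlib 3.10.9 were also used.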

Additional observations from a re-analysis of the deposited data

How the results depend on the processing

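The counts of keratins called kept within 1.5 times under every alternative, with 1 exception. Keratins that fell relative to Epcam and Cdh1 numbered 2 with the added step, against 4 with the line. Without each embryonic array in turn, 4 to 5 keratins rose and 1 was higher in the adult. Relative to the markers, by the moderated test only, 3 to 4 rose (Krt18 added without E13.5) and 3 to 4 fell. Over all genes, leaving out 1 embryonic array gave between 812 (without E18.5) and 2076 (without E15.5) that rose. With each gene's own spread, 2 keratins rose relative to the markers and 4 fell, where 1.6% of all genes rose and 78% fell. The adult difference of Krt20 lay between 2.71 and 3.09 over 11 alternatives (limma adjusted p 0.00115 to 0.0121). The signs that turned were all of values that never passed. Set against E17.5 and E18.5 averaged, the adult difference was 0.13 for Krt7 and 0.027 for Krt15, and with centred arrays the slope of Krt15 was −0.0003. Leaving out 1 embryonic array gave adult differences of −0.20 to 0.044 for Krt7, −0.19 to 0.22 for Krt19, −0.037 to 0.092 for Krt5 and −0.098 to 0.038 for Krt15, and slopes of −0.024 to 0.0099 for Krt5 and −0.018 to 0.039 for Krt15. Over all genes, 1660 rose along the line, 645 with the step and 812 without E18.5, and 1004 were lower in the adult by the highest probe set, against 593. The cause was not tested. No paired analysis was possible because each stage had 1 array. Whether the samples of the stages were processed together is not given in the sources used here.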

Other observations

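A probe set that the platform annotation assigns to both Krt17 and Krt14 was left out of the comparisons, since its signal cannot be split between them. It read 5.30, 5.33, 5.30, 5.33, 5.33 and 5.28 over the embryonic days and 5.47 in the adult.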
